A study of Mus musculus with 12 samples.

Results

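The 9 genes described here encode the sperm-side proteins that are required for, or belong to the families of those required for, the joining of the sperm and egg membranes: Izumo1, Izumo2, Izumo3, Izumo4, Spaca6, Tmem95, Dcst1, Dcst2 and Llcfc1. They were chosen by name and by no rule on measured values, though earlier results of these data were known. All 9 were found among the 28643 gene symbols used from the deposited FPKM table. FPKM is a read density corrected for transcript length and library size, so levels can be set side by side between genes. Such a comparison is approximate, since libraries deviated by transcript length and some exons overlap other genes, as given below. All 9 had a mean above 0.1 FPKM in every group and entered every test.

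The cells were round spermatids (RS), the haploid germ cells that follow meiosis, sorted by flow cytometry with cycloheximide present from 8-week-old males. Control RS came from Igf2bp3+/- males, which carry 1 intact allele, and knockout RS from Igf2bp3-/- males, in which Cas9 had placed a frameshift in the part of the gene that codes for an RNA-binding domain. By the study's methods, knockout males were selected for impaired fertility, which limits this group as a sample of the genotype. For each genotype, 3 libraries of total input RNA (RNA-seq) and 3 of mRNA with 4 or more ribosomes, taken from sucrose gradients (RNC-seq), gave 12 libraries. There was no Igf2bp3+/+ group, so both genotypes carry at least 1 mutant allele; the deposited table names the Igf2bp3+/- columns WT. The labels do not say which RNC-seq library came from the same extract as which RNA-seq library.

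IGF2BP3 is an RNA-binding protein that recognizes N6-methyladenosine on mRNA. IZUMO1 sits on the sperm membrane and binds JUNO, the product of Izumo1r, on the egg. Sperm that lack IZUMO1, SPACA6, TMEM95, DCST1, DCST2 or LLCFC1 reach and bind the egg membrane but fuse with it poorly or not at all. These proteins are laid down in the acrosome and its membranes while the spermatid matures, and much mRNA in RS is stored before it is translated, which makes the polysome share of each message of interest.

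The 9 genes lie on 7 chromosomes in GRCm38 (GENCODE M21). Izumo1 and Izumo2 are both on the plus strand of chromosome 7, at chr7:45621811-45628823 and chr7:44708742-44719844. Izumo3 lies on the minus strand at chr4:92144329-92147234 and Izumo4 on the plus strand at chr10:80702184-80705373. Spaca6 is on the plus strand at chr17:17827158-17843009 and Tmem95 on the minus strand at chr11:69876684-69878018. Llcfc1 is on the plus strand at chr6:41684431-41685717. Dcst1 (chr3:89350219-89365253, minus strand) and Dcst2 (chr3:89361975-89377549, plus strand) overlap as loci but share no annotated exonic base. Of Dcst1's exonic bases, 24.2% lie opposite the pseudogene Gm10702, and of Izumo1's, 21.9% are shared with Rasip1 on the same strand. Rasip1 itself stayed under 0.4 FPKM in every library, whereas Gm10702 was not analysed here and the use of strand in counting is not stated.

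RefSeq promoter windows (250 bases before to 50 after the start, GRCm38.p6) were matched for 8 of the 9 genes, Izumo4 being the exception. Of these 8, only Izumo1 held the full cyclic AMP response element TGACGTCA, which CREM and related activators of spermatid genes recognize, on either strand. Of all 32817 windows, 1.79% held it. The 250 bases upstream of the Izumo1 start, chr7:45621561-45621810 on the plus strand, are shown because Izumo1 is the best-known gene of the group, with the element in capitals beginning 96 bases before the start:
Izumo1 upstream: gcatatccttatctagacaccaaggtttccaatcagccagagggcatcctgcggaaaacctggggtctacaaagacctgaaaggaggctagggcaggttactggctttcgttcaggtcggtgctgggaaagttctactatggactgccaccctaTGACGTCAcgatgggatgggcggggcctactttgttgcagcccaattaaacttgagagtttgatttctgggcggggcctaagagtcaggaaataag
The shorter form TGACG, which the full element contains, was held by Izumo1 and Tmem95 and by 20.8% of all windows. The letters GTTGCC, a core of the X-box read by RFX factors, were held by Spaca6 and by 12.5% of all windows. A match is a description of the letters only.

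Dcst1 and Dcst2 are shown as a pair because RefSeq starts them head to head. The Dcst1 start is at chr3:89365253 and the Dcst2 start at chr3:89365319, with 65 bases between them (chr3:89365254-89365318, plus strand), none of which GENCODE M21 annotates as exon. GENCODE M21 itself begins Dcst2 farther upstream, inside the Dcst1 locus. The stretch from which the pair diverges reads:
between Dcst1 and Dcst2 starts: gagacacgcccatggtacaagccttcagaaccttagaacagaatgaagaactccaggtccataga

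The libraries as a whole had several features that touch the values below. The depth in reads is unknown from FPKM, but the steps between low values put the libraries at 0.263 to 1 of the deepest one. A single ribosomal transcript, CT010467.1, took 5.68 to 19.4% of summed FPKM. In RNA-seq its share was 9.22 to 13.3% in Igf2bp3+/- and 5.68 to 9.25% in Igf2bp3-/- libraries. In RNC-seq it was 15.9 to 19.4% and 8.14 to 14.6%, without overlap. As FPKM is relative within a library, this difference between groups enters each comparison of them. Igf2bp3+/- RNA-seq replicate 3 was low for transcripts up to 1000 bases, with a median deviation of -0.26 (log2) against -0.043 for longer ones, and Igf2bp3-/- RNC-seq replicate 2 was low in the same way, with -0.31 against 0.041. Igf2bp3+/- RNC-seq replicate 1 was high for the shorter ones, with 0.24 against 0.031. Igf2bp3 itself was listed at 36.7 ± 2.91 FPKM (SD, n = 3) in Igf2bp3+/- and 31.9 ± 0.536 in Igf2bp3-/- RNA-seq, a log2 change of -0.20 (adjusted p = 0.335 by limma), and since a frameshift need not remove the mRNA this level does not check the genotype labels. All 7 round spermatid markers were present in every library and summed to 744 to 1195 FPKM in RNA-seq. Leydig cell markers, which sorted RS should lack, summed to 15.4 to 22.6 FPKM in Igf2bp3+/- and 48.6 to 55.0 in Igf2bp3-/- RNA-seq, and to 6.75 to 14.3 and 51.5 to 103 in RNC-seq. In bulk samples, a different mix of cells and a different amount of RNA per cell cannot be told apart.

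The fusion genes formed 3 tiers of abundance. In Igf2bp3+/- RNA-seq, Llcfc1, Izumo2 and Izumo4 stood highest, with mean levels of 188 ± 39.6, 175 ± 20.5 and 136 ± 7.93 FPKM (SD, n = 3). Izumo3, Dcst1 and Izumo1 followed with 75.9 ± 13.2, 67.9 ± 1.07 and 58.1 ± 4.92 FPKM. Spaca6, Dcst2 and Tmem95 were lowest, with 20.2 ± 3.78, 17.8 ± 0.855 and 13.5 ± 1.14 FPKM. The tiers did not overlap in any of the 4 groups. Within this group, the libraries of Llcfc1 and Izumo2, of Izumo3 and Dcst1, and of Spaca6 and Dcst2 overlapped, so those neighbours cannot be ordered. Even the lowest mean, 12.0 FPKM for Dcst2 in Igf2bp3+/- RNC-seq, stood at percentile 80.5 of the genes above 0 in that group, and the highest, 539 FPKM for Llcfc1 in Igf2bp3-/- RNC-seq, at percentile 99.5.

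**Figure D1:**
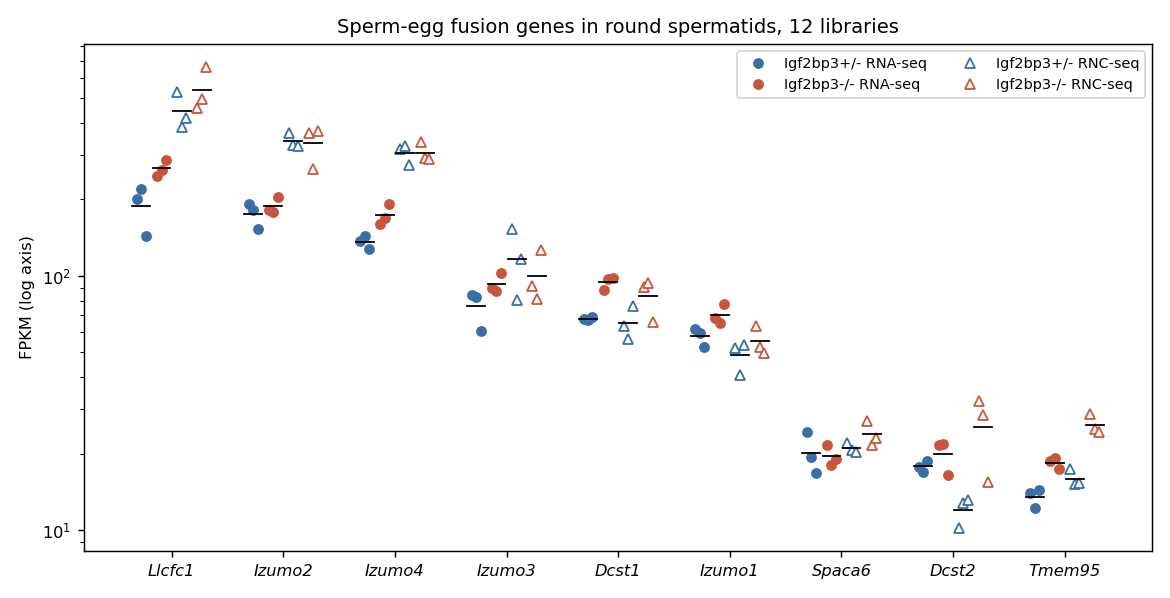
FPKM of the 9 fusion genes in the 12 libraries, on a log axis, ordered by the Igf2bp3+/- RNA-seq mean. Each point is 1 library, filled circles are RNA-seq and open triangles RNC-seq, blue is Igf2bp3+/- and red Igf2bp3-/-, and black bars are group means. Llcfc1, Izumo2 and Izumo4 form the upper tier in all 4 groups, and Dcst2 is at 10.2 to 13.2 FPKM in Igf2bp3+/- RNC-seq against 15.4 to 32.3 in Igf2bp3-/- RNC-seq.

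To see how the fusion mRNAs were divided between total RNA and polysomes, RNC-seq was compared with RNA-seq within each genotype. FPKM is relative within a library, so this polysome loading is loading relative to all other mRNAs. In Igf2bp3+/- RS, Izumo2, Izumo4 and Llcfc1 were enriched on polysomes, Dcst2 was depleted, and the other 5 did not pass the test (limma on log2(FPKM + 0.1), Benjamini-Hochberg adjusted p under 0.05). Among all 17942 genes tested, 18.6% were called higher and 25.1% lower. The median log2 difference of the 9 genes was 0.24, against -0.091 over all genes.

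Llcfc1, which encodes a small protein of the LLLL and CFNLAS motif family, had the largest polysome enrichment of the 9. It was at 200.2, 220.4 and 143.9 FPKM in the Igf2bp3+/- RNA-seq libraries and at 530.0, 383.7 and 418.9 in RNC-seq. All RNC-seq values lay above all RNA-seq values, and the log2 difference was 1.25 ± 0.19 (SE; adjusted p = 0.000959 by limma). Llcfc1 is among the shorter transcripts, at 741 bases, and its lowest RNA-seq value was in replicate 3, the library that was low for short transcripts. Its highest RNC-seq value was in replicate 1, the library that was high for them. Without either of these libraries, the call still held, as it did without each other library of the comparison.

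Izumo4, an IZUMO family member, was at 137.1, 143.1 and 127.4 FPKM in Igf2bp3+/- RNA-seq and 316.3, 323.6 and 273.2 in RNC-seq. The groups did not overlap, and the log2 difference was 1.16 ± 0.12 (adjusted p = 0.000165 by limma). Izumo2, another IZUMO family member, was at 192.3, 180.9 and 152.5 FPKM in RNA-seq and 365.1, 328.4 and 325.5 in RNC-seq, again without overlap, and its log2 difference was 0.96 ± 0.13 (adjusted p = 0.000514).

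Izumo1 was divided differently from these family members. Its values were 61.9, 59.8 and 52.5 FPKM in Igf2bp3+/- RNA-seq and 51.9, 40.8 and 53.4 in RNC-seq, with overlapping groups. The log2 difference was -0.26 (95% interval -0.58 to 0.064, adjusted p = 0.172 by limma), so the interval excludes an enrichment of the size seen for Izumo2 and Izumo4. Izumo3 varied most of the 9 relative to its mean in Igf2bp3+/- RNC-seq, at 152.9, 80.1 and 116.9 FPKM against 84.1, 82.9 and 60.7 in RNA-seq. Its log2 difference of 0.59 ± 0.23 missed the limit (adjusted p = 0.0719). It was 0.83 without Igf2bp3+/- RNC-seq replicate 2, where it passed (adjusted p = 0.00937), and 0.37 without replicate 1 (adjusted p = 0.220). With all libraries kept, it passed after centring each library on its median (0.74, adjusted p = 0.00744). It also passed with library weights (0.56, adjusted p = 0.0326) and rescaled without CT010467.1 (0.71, adjusted p = 0.0253). Over all such settings the adjusted p ran up to 0.131.

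Of the IZUMO1-like partners, Spaca6 was at 24.3, 19.4 and 16.8 FPKM in RNA-seq and 22.0, 20.6 and 20.4 in RNC-seq, a log2 difference of 0.073 (95% interval -0.28 to 0.43). Tmem95, which encodes a membrane protein with an IZUMO-like ectodomain, was at 14.0, 12.2 and 14.4 FPKM in RNA-seq and 17.4, 15.2 and 15.3 in RNC-seq. Its groups did not overlap, but the log2 difference of 0.24 ± 0.14 did not pass the test (adjusted p = 0.189 by limma).

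Dcst1 and Dcst2 encode multi-pass membrane proteins that work together in sperm. Dcst1 was near parity, at 67.4, 67.1 and 69.1 FPKM in Igf2bp3+/- RNA-seq and 63.7, 56.6 and 75.9 in RNC-seq (log2 difference -0.065, 95% interval -0.37 to 0.24). Dcst2 was at 17.8, 17.0 and 18.7 FPKM in RNA-seq and 10.2, 12.7 and 13.2 in RNC-seq. All its RNC-seq values lay below all its RNA-seq values, and the log2 difference was -0.57 ± 0.14 (adjusted p = 0.0121 by limma). This call was lost after centring every library on its own median (-0.41, adjusted p = 0.0776), a scaling that moved the median of all genes by 0.16 and under which 55.9% rather than 42.5% of calls were enrichments.

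In Igf2bp3-/- RS, the same 3 genes were enriched and no fusion gene was depleted, against 10.1% called higher and 10.9% lower among 18456 genes tested. Llcfc1 was at 247.2, 260.8 and 285.5 FPKM in RNA-seq and 456.3, 496.6 and 662.7 in RNC-seq (log2 difference 1.01 ± 0.18, adjusted p = 0.00684 by limma). Izumo4 was at 159.6, 168.2 and 192.0 against 337.4, 290.5 and 287.2 FPKM (0.82 ± 0.16, adjusted p = 0.00907). Izumo2 was at 182.2, 178.9 and 204.5 against 365.7, 263.1 and 371.3 FPKM (0.81 ± 0.18, adjusted p = 0.0148). The RNC-seq values of all 3 genes lay above their RNA-seq values in every library. The calls of Izumo2 and Izumo4 were lost, with little change in size, without Igf2bp3-/- RNA-seq replicate 1 (0.78 and 0.76, adjusted p = 0.0719 and 0.0582) or replicate 2 (0.77 and 0.80, adjusted p = 0.0776 and 0.0567). In the same fits, the calls over all genes went from 3880 to 1155 and 1414.

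Among the genes that did not pass in Igf2bp3-/- RS, Tmem95 came nearest, with a log2 difference of 0.49 ± 0.16 (adjusted p = 0.0531 by limma) and no overlap between assays. It passed under 5 alternatives: a mean FPKM above 1 (adjusted p = 0.0443), centring (0.0304), library weights (0.0387), leaving out Igf2bp3-/- RNC-seq replicate 2 (0.0255) and rescaling without CT010467.1 (0.0272). Izumo1 was again lower in RNC-seq, with no overlap, at a log2 difference of -0.35 ± 0.17 (adjusted p = 0.161), and was called lower with quantile normalization (-0.43, adjusted p = 0.0411). Dcst2 had a log2 difference of 0.29 (95% interval -0.32 to 0.90). The loading of each genotype was measured in separate libraries, so the 2 comparisons share none, but each shares libraries with the genotype comparisons given further on.

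**Figure D2:**
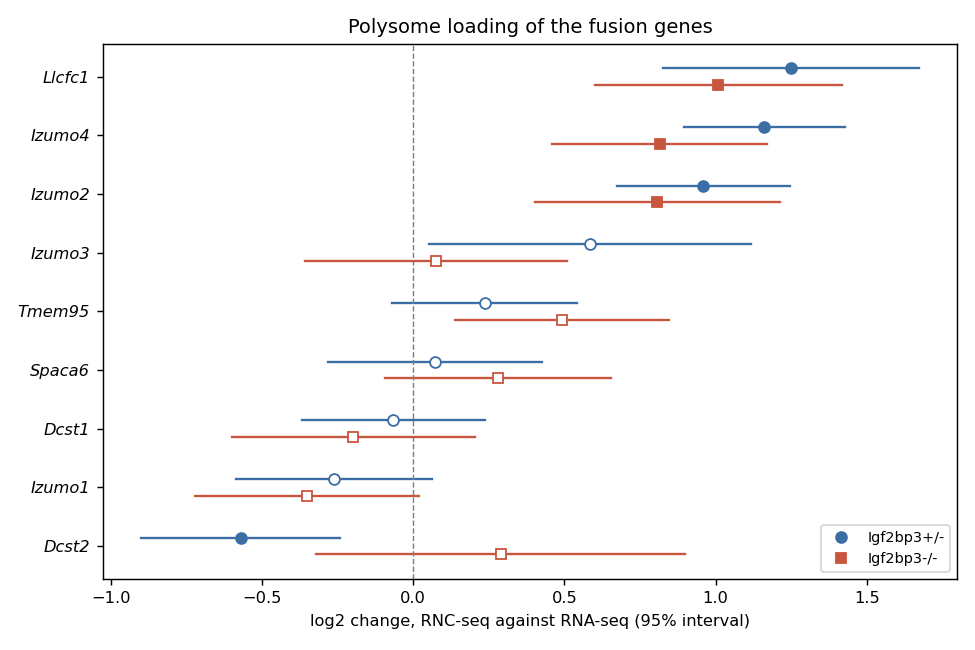
Log2 difference between RNC-seq and RNA-seq for the 9 fusion genes, with 95% intervals from limma, in Igf2bp3+/- (blue circles) and Igf2bp3-/- (red squares). Filled points passed the adjusted p limit of 0.05. Llcfc1, Izumo4 and Izumo2 are filled in both genotypes, and Dcst2 is filled, below 0, in Igf2bp3+/-.

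The other sperm-side genes of gamete adhesion and fusion spread over the same range. Of 15 such genes, all tested, 5 were called higher on polysomes in Igf2bp3+/- RS, 5 were called lower and 5 did not pass, with a median log2 difference of 0.21. The highest were Spaca4, which encodes a GPI-anchored acrosomal protein (1.15, adjusted p = 0.000235 by limma), and Frey1, whose product helps to stabilize IZUMO1 during its making (1.00, adjusted p = 0.00545). The lowest were Pdilt, a testis chaperone needed for ADAM3 (-1.15, adjusted p = 0.000293), and Zp3r, an acrosomal matrix protein (-0.82, adjusted p = 0.00373). In Igf2bp3-/- RS, 4 of the 15 were called higher, 3 lower and 8 did not pass. Spaca4 (1.17) and Frey1 (1.05) were again the highest, and Pdilt (-1.19) and Zp3r (-1.09) the lowest.

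**Figure D3:**
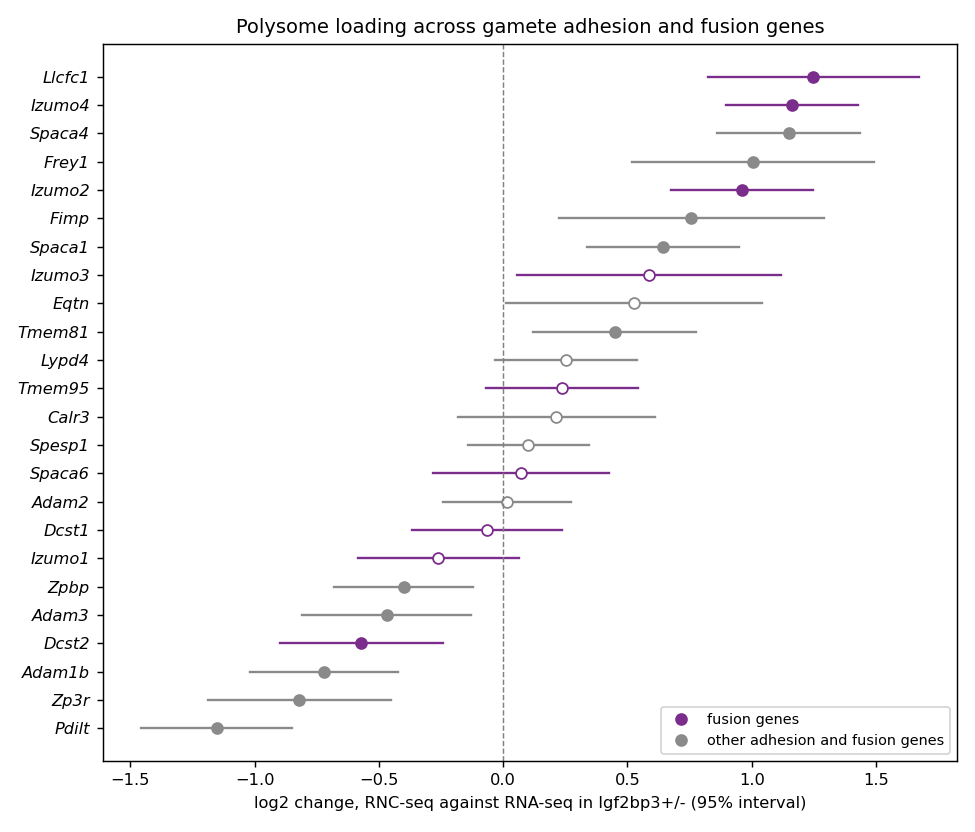
Log2 difference between RNC-seq and RNA-seq in Igf2bp3+/- RS, with 95% intervals from limma, for the 9 fusion genes (purple) and 15 other gamete adhesion and fusion genes (grey). Filled points passed the adjusted p limit of 0.05. Values run from 1.25 for Llcfc1 to -1.15 for Pdilt, with Izumo1 and Dcst1 near the middle.

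Next, the genotypes were compared within RNA-seq, to ask whether loss of IGF2BP3 was accompanied by a change in the amount of these mRNAs. No fusion gene passed the test, against 0.256% of 20352 genes (40 higher and 12 lower). Of the 9, 8 had a log2 change above 0, against 56.2% of all genes, and the median was 0.31 against 0.046. Quantile normalization took these medians to 0.18 and 0.0019, with Izumo4 at 0.19 and Llcfc1 at 0.31, and turned Izumo2 below 0. At an unadjusted p under 0.05, 5 were higher and none lower, where 10.4% of all genes were higher. All 3 Igf2bp3-/- libraries lay above all 3 Igf2bp3+/- libraries for 6 of the 9, which held for 14.1% of all genes. Leaving out a library cannot make separate groups overlap, so this count could not fall and the step is no check of it. With any 1 library left out, it was 6 or 7 of the 9, against 16.9 to 22.6% of all genes.

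Dcst1 had the smallest p. It was at 67.4, 67.1 and 69.1 FPKM in Igf2bp3+/- and 87.7, 96.9 and 98.4 in Igf2bp3-/- RNA-seq. The groups were apart by more than their spread, and the log2 change was 0.47 ± 0.082 (95% interval 0.28 to 0.66, adjusted p = 0.0953 by limma). Over the 6 fits that each left out 1 library it ran from 0.44 to 0.52 (adjusted p from 0.126 to 0.422), and with limma's library weights it passed the limit (0.48, adjusted p = 0.0382).

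Tmem95 was at 14.0, 12.2 and 14.4 FPKM in Igf2bp3+/- and 18.8, 19.2 and 17.4 in Igf2bp3-/- RNA-seq, without overlap. Its log2 change was 0.45 ± 0.10 (adjusted p = 0.158 by limma). Llcfc1 was at 200.2, 220.4 and 143.9 FPKM against 247.2, 260.8 and 285.5, also without overlap, and had the highest log2 change of the 9, 0.51 ± 0.15 (adjusted p = 0.203). Without Igf2bp3+/- RNA-seq replicate 3, its lowest library, the change was 0.33.

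Within the IZUMO family, 3 of the 4 genes had groups that did not overlap. Izumo4 was at 137.1, 143.1 and 127.4 FPKM in Igf2bp3+/- and 159.6, 168.2 and 192.0 in Igf2bp3-/- RNA-seq (log2 change 0.35 ± 0.10, adjusted p = 0.191 by limma). Izumo1 was at 61.9, 59.8 and 52.5 FPKM against 68.1, 65.3 and 77.5 (0.28 ± 0.10, adjusted p = 0.265). Izumo3 was at 84.1, 82.9 and 60.7 FPKM against 89.9, 87.5 and 102.3 (0.31 ± 0.14, adjusted p = 0.322). For Izumo1 and Izumo3 the lowest Igf2bp3+/- value was that of replicate 3, and the gap between the nearest libraries of the groups was narrow. Without that replicate the change was 0.20 for Izumo1 and 0.16 for Izumo3.

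The other 3 genes overlapped between genotypes. Izumo2 was at 192.3, 180.9 and 152.5 FPKM against 182.2, 178.9 and 204.5, a log2 change of 0.11 (95% interval -0.13 to 0.35). Dcst2 was at 17.8, 17.0 and 18.7 FPKM against 21.6, 21.8 and 16.4, a log2 change of 0.15 (-0.14 to 0.44). Spaca6 was at 24.3, 19.4 and 16.8 FPKM against 21.7, 18.1 and 19.0, a log2 change of -0.028 (-0.36 to 0.30).

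Other lists were measured beside the fusion genes in this comparison. Of the 15 other adhesion and fusion genes, none passed the test, 4 were higher at an unadjusted p under 0.05, 13 lay above 0 and the median log2 change was 0.24. The largest changes were those of Eqtn (0.51) and Spaca4 (0.44), both acrosomal membrane proteins, and the smallest those of Adam1b (-0.058) and Zpbp (-0.018). The 7 round spermatid markers were all above 0 and none passed, with a median of 0.44, and their summed level was 744 to 910 FPKM in Igf2bp3+/- and 1042 to 1195 in Igf2bp3-/- libraries. The 7 elongating spermatid markers had a median of -0.15, with 2 above 0, and the 7 spermatocyte markers a median of 0.13, with 7 above 0. All 7 Leydig markers were above 0 and 4 passed the test, and all 6 macrophage markers were above 0 and 1 passed, with sums of 4.78 to 6.0 FPKM in Igf2bp3+/- and 7.89 to 9.09 in Igf2bp3-/- libraries. Sertoli cell markers summed to 4.56 to 4.74 and 5.17 to 6.01 FPKM, and no listed marker of any of these cell types was at 0 throughout a group. The part of cell composition in the fusion gene values was not tested.

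**Figure D4:**
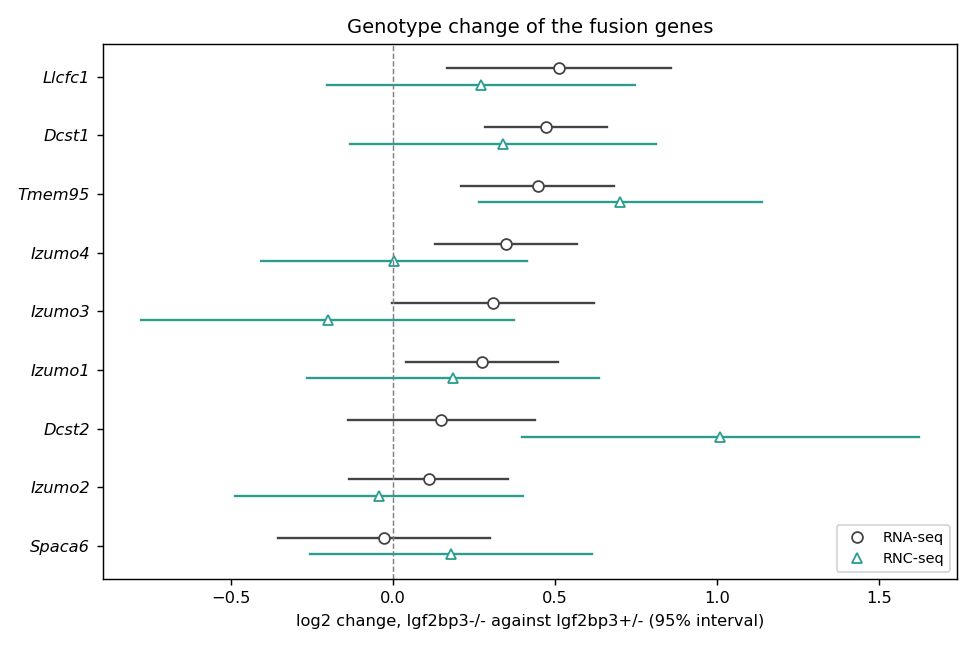
Log2 change between Igf2bp3-/- and Igf2bp3+/- RS for the 9 fusion genes, with 95% intervals from limma, in RNA-seq (dark circles) and RNC-seq (green triangles). Open points did not pass the adjusted p limit of 0.05, and all are open. In RNA-seq 8 of 9 points lie above 0, and in RNC-seq Dcst2 (1.01) and Tmem95 (0.70) stand highest.

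On polysomes, no fusion gene passed the genotype test either, against 0.115% of 19051 genes (15 higher and 7 lower, a split that became 6 and 7 after centring). Of the 9, 7 lay above 0, against 65.3% of all genes, and the median log2 change was 0.19 against 0.13 over all genes. Centring took the medians to 0.066 and 0.0078. At an unadjusted p under 0.05, 2 genes were higher, where 5.36% of all genes were. The same 2 had groups that did not overlap, as 9.44% of all genes did in that direction.

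Dcst2 was at 10.2, 12.7 and 13.2 FPKM in Igf2bp3+/- RNC-seq and at 32.3, 28.4 and 15.4 in Igf2bp3-/- RNC-seq. Replicates 1 and 2 of the knockout were more than double every control value, and replicate 3 was close to the control range. The log2 change was 1.01 ± 0.28 (95% interval 0.40 to 1.62, adjusted p = 0.593 by limma). With 1 library left out, it ran from 0.80 without Igf2bp3-/- RNC-seq replicate 1 (adjusted p = 0.946) to 1.33 without replicate 3 (adjusted p = 0.112). Dcst1, its neighbour, was also lowest of the knockout libraries in replicate 3, at 90.1, 93.7 and 65.6 FPKM against 63.7, 56.6 and 75.9, a log2 change of 0.34 ± 0.22 (adjusted p = 0.822). Igf2bp3-/- RNC-seq replicate 3 was low for transcripts over 1000 bases, with a median deviation of -0.13 (log2) against 0.17 for shorter ones. The Dcst1 and Dcst2 transcripts, at 2342 and 2285 bases, are above that length. The part of this in their values was not tested.

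Tmem95 was at 17.4, 15.2 and 15.3 FPKM in Igf2bp3+/- and 28.7, 25.0 and 24.4 in Igf2bp3-/- RNC-seq. The groups were far apart relative to their spread, and the log2 change was 0.70 ± 0.20 (adjusted p = 0.614 by limma). It ranged from 0.63 to 0.76 when 1 library at a time was left out. Tmem95 was the only gene of the 9 whose genotype groups did not overlap in both assays, and its transcript is the shortest of the 9 by this annotation, at 531 bases.

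The remaining genes overlapped between genotypes in RNC-seq. Llcfc1 was at 530.0, 383.7 and 418.9 FPKM against 456.3, 496.6 and 662.7, a log2 change of 0.27 (95% interval -0.20 to 0.75). Izumo1 was at 51.9, 40.8 and 53.4 FPKM against 63.6, 52.5 and 49.8 (0.19, -0.26 to 0.64). Spaca6 was at 22.0, 20.6 and 20.4 FPKM against 26.9, 21.7 and 23.0 (0.18, -0.26 to 0.61). Each of these 3 intervals includes 0 and extends above 0.6 on the log2 scale.

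Izumo2, Izumo3 and Izumo4 stood near or below 0. Izumo4 was at 316.3, 323.6 and 273.2 FPKM in Igf2bp3+/- and 337.4, 290.5 and 287.2 in Igf2bp3-/- RNC-seq (log2 change 0.0033, 95% interval -0.41 to 0.41). Izumo2 was at 365.1, 328.4 and 325.5 FPKM against 365.7, 263.1 and 371.3 (-0.043, -0.49 to 0.40). Izumo3 was at 152.9, 80.1 and 116.9 FPKM against 91.7, 81.1 and 126.8 (-0.20, -0.78 to 0.37). For Izumo2, a transcript of 632 bases, the lowest knockout value was in replicate 2, the library low for short transcripts. Of the 15 other adhesion and fusion genes, none passed, 11 lay above 0 and the median was 0.20. Their largest changes were those of Spaca4 (0.46) and Lypd4 (0.45) and their smallest those of Adam2 (-0.21) and Calr3 (-0.12). Among cell type markers in RNC-seq, 6 of 7 elongating spermatid (median 0.44), 7 of 7 round spermatid (0.23) and 2 of 7 spermatocyte markers (-0.29) lay above 0. None of these passed, whereas 7 of 7 Leydig markers lay above 0 (1.40) and 1 passed. The part of cell composition in the RNC-seq values was not tested.

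Translational efficiency (TE), the RNC-seq level divided by the RNA-seq level, was then compared between genotypes by an interaction term fitted to the 12 libraries together. No fusion gene passed, against 0.00543% of 18414 genes, and 1 was higher at an unadjusted p under 0.05, where 5.54% of all genes were. Of the 9, 3 lay above 0 and 6 below, where 55.6% of all genes lay above, with a median of -0.13 against 0.064 over all genes. Centring moved these medians to -0.26 and -0.065.

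Dcst2 stood apart in size. The ratio of its mean FPKM values was 0.675 in Igf2bp3+/- and 1.27 in Igf2bp3-/- RS, 1.88 times as high. The log2 difference in TE was 0.86 ± 0.33 (95% interval 0.15 to 1.57, unadjusted p = 0.0208, adjusted p = 0.686 by limma). With 1 library left out, it ran from 0.65 without Igf2bp3-/- RNC-seq replicate 1 to 1.18 without replicate 3, and the adjusted p over these fits from 0.112 to 0.941. It was the only one of the 9 whose ratio of means changed by more than 1.5-fold, a change that 20.0% of 19433 genes with both ratios had upward and 9.27% downward.

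The 3 polysome-enriched genes had log2 TE differences below 0, with intervals that each included 0. The ratio of means was 2.36 in Igf2bp3+/- and 2.04 in Igf2bp3-/- RS for Llcfc1, 2.24 and 1.76 for Izumo4, and 1.94 and 1.77 for Izumo2. Their log2 differences were -0.24 (95% interval -0.81 to 0.34), -0.34 (-0.74 to 0.054) and -0.15 (-0.62 to 0.32). Izumo3 went from 1.54 to 1.07, with the lowest log2 difference of the 9, -0.51 (-1.20 to 0.18).

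For the other 4 genes, the ratio of means was 0.839 and 0.787 for Izumo1, 0.963 and 0.882 for Dcst1, 1.04 and 1.22 for Spaca6, and 1.18 and 1.41 for Tmem95, in Igf2bp3+/- and Igf2bp3-/- RS in that order. Their log2 differences ran from -0.13 to 0.26, and each interval included 0. Of the 15 other adhesion and fusion genes none passed, and 7 lay above 0. The highest were Tmem81 (0.25), whose product joins IZUMO1 and SPACA6 in a complex on sperm, and Adam1b (0.21), and the lowest were Eqtn (-0.55) and Adam2 (-0.33). For TE, 7 of 7 elongating spermatid (median 0.40), 3 of 7 round spermatid (-0.046) and 1 of 7 spermatocyte markers (-0.42) lay above 0, and none passed. The part of cell composition in the TE values was not tested.

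Likeness was computed over the 12 libraries of both assays, so it includes the polysome loading of each gene. The genes most like Izumo1, by Pearson's r of log2(FPKM + 0.1) among 12264 other genes with a mean of at least 1 FPKM, were Ccdc183 (r = 0.977), Zranb2 (0.959), Rmnd1 (0.952), Arl13a (0.947) and Dnaja1 (0.945). Of the other fusion genes, Dcst1 ranked 785 in this order (r = 0.744) and Dcst2 4933, whereas Izumo2 ranked 11637 (r = -0.50). That order did not hold over the 6 RNA-seq libraries, where Izumo1 had r = 0.864 with Izumo2, 0.796 with Dcst1 and -0.056 with Dcst2. Over the 6 RNC-seq libraries it held for these genes, with r = 0.783 for Dcst1, 0.609 for Dcst2 and 0.159 for Izumo2. Within RNA-seq, Izumo1 had r = 0.864 to 0.948 with Izumo2, Izumo3, Izumo4 and Llcfc1, and within RNC-seq 0.0864 to 0.195. The closest pair over all 12 was Izumo2 and Izumo4 (r = 0.951, but 0.703 within RNA-seq and 0.367 within RNC-seq), both higher in every RNC-seq than in every RNA-seq library. Dcst1 and Dcst2 had r = 0.690, with 0.372 within RNA-seq and 0.864 within RNC-seq. These correlations are descriptions over libraries that differ in assay, genotype and depth.

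On the egg side, Izumo1r was not among the gene symbols used. Cd9 and Cd81, tetraspanins of the egg membrane, summed to 1.70 to 2.84 FPKM in Igf2bp3+/- and 3.75 to 4.80 in Igf2bp3-/- RNA-seq. In RNC-seq they summed to 2.61 to 3.42 and 2.61 to 4.1 FPKM. Neither passed a genotype test.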

How the data were processed

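Sorted round spermatids were profiled in 12 libraries, 3 per combination of genotype (Igf2bp3+/- and Igf2bp3-/-) and assay (RNA-seq and RNC-seq). The authors deposited 1 table of FPKM per gene symbol and library. By the study's methods and the submitters' processing notes, reads were trimmed with Trim Galore 0.6.6, aligned with HISAT2 to GRCm38 (mm10) and quantified with StringTie 2.1.7. The annotation release and use of strand are not given in the sources used here. The labels and the methods name different library kits and sequencers. Counts were not used here, so the depth is unknown and no count model was fitted.

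Of 28668 symbols, 25 had turned into dates (0.0995% of FPKM) and were left out. Genes with a mean FPKM above 0.1 were tested on log2(FPKM + 0.1), a scale that understates the change of low genes, with limma 3.58.1 (R 4.3.3, intensity trend, two-sided, Benjamini-Hochberg over all genes tested, limit 0.05). Fits were also run on simulated data with independent noise for each gene and library. The simulated data held no length or CT010467.1 differences between libraries, so they do not test the fits against these. The genotypes were compared within RNA-seq and within RNC-seq, the assays within each genotype, and TE by interaction over 12 libraries. The study's methods describe spermatids isolated from each mouse and call replicates biological, but the labels tie no library to an animal, so p-values measure the spread between these libraries. Locus coordinates are from GENCODE M21 and promoters from RefSeq (GRCm38.p6).

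The 9 genes and all lists were chosen with earlier results of these data known. Values were given for the 9 genes and Igf2bp3, for the pathway genes with the 2 largest and 2 smallest changes in each comparison, and for the 5 genes most like Izumo1. Alternatives varied the pseudocount, filter, scaling, weights, trend, block, limits and each library. A rescaling without CT010467.1 and the overlap counts without each library were added after seeing the data.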

Additional observations from a re-analysis of the deposited data

How the results depend on the processing

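Each group had 3 libraries and the depth is unknown. Igf2bp3+/- RNA-seq replicate 3 and Igf2bp3-/- RNC-seq replicate 2 are low for short transcripts, and Igf2bp3+/- RNC-seq replicate 1 is high for them. In the first, Llcfc1, Izumo1, Izumo2, Izumo3, Izumo4 and Spaca6 were lowest of their group, and Dcst1, Dcst2 and Tmem95 highest. Izumo1, Izumo3, Izumo4 and Spaca6 have transcripts above 1000 bases, while that of Tmem95 is the shortest. In the second, Izumo2, Izumo3 and Spaca6 were lowest. Igf2bp3-/- RNC-seq replicate 3 is low for transcripts over 1000 bases. The cause of the changes listed here was not tested, except that fewer libraries or genes enter where a library or filter is named.

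In the RNA-seq genotype comparison, 52 genes passed, against 31 with no filter, 84 with library weights (54 higher and 30 lower), 4 with the replicate block, 1109 at an unadjusted p under 0.05 and over 1.5-fold, 158 at an unadjusted p and an absolute log2 change over 1.5, and 9 to 38 without 1 library. Of the fusion genes 0 passed, and 1 (Dcst1) did with library weights. Quantile normalization turned Izumo2 to -0.081. Spaca6 ran from -0.15 to 0.11 without 1 library.

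In RNC-seq, 22 genes passed, against 2 with no filter, 13 when centred, 12 with quantile normalization, 1 with no trend, 48 in 1 fit of all 12 libraries, 1102 and 188 under those unadjusted limits, and 0 to 20 without 1 library. Of the fusion genes, 2 (Tmem95 and Dcst2) met the unadjusted 1.5-fold limit. Izumo4 turned to -0.12 when centred, -0.14 with quantile normalization and -0.11 rescaled without CT010467.1, and Izumo2 to 0.0061 with library weights. Without 1 library, Izumo2 ran from -0.13 to 0.12, Izumo3 from -0.45 to 0.019 and Izumo4 from -0.073 to 0.049.

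For TE, 1 gene passed, against 2 with a pseudocount of 0.01 or no trend, 0 with a pseudocount of 1, a mean above 1, library weights or the replicate block, 1207 and 196 under the unadjusted limits, and 2 without Igf2bp3+/- RNC-seq replicate 3. Dcst2 was the 1 fusion gene to meet the unadjusted 1.5-fold limit. Without 1 library, Izumo2 ran from -0.24 to 0.0099 and Dcst1 from -0.23 to 0.029.

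For polysome loading in Igf2bp3+/-, 7834 genes passed, and 1633, with 0 fusion genes, at an absolute log2 change over 1.5. Centring called 5 of the 9 higher (adding Izumo3, 0.74, and Tmem95, 0.39) and none lower. Dcst1 turned to 0.093 when centred, 0.017 with library weights and 0.057 without CT010467.1, and ran from -0.18 to 0.034 without 1 library, and Spaca6 from -0.048 to 0.21. In Igf2bp3-/-, 3880 passed, 585 and 0 at that limit, 1155 to 6182 without 1 library, and 1 to 4 of the fusion genes (Tmem95 being the fourth). Izumo3 turned to -0.051 with quantile normalization and ran from -0.11 to 0.21 without 1 library.

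By the study's methods, RNA-seq input and polysomes came from the same extract, but the labels do not tie libraries by number. Same-numbered libraries had deviations that correlated at -0.10 to 0.21 between assays and -0.083 to 0.24 between genotypes. Different-numbered ones ran from -0.31 to 0.18 and from -0.44 to 0.52. These overlapping ranges cannot decide whether the numbers mark pairs, and they were not taken as pairs. The replicate block changed no call of a fusion gene.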
